A study of Mus musculus with 14 samples.

Results

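The activating transcription factor ATF4 and 9 genes of the amino acid response that it controls were followed here by name: Atf4, Ddit3, Asns, Trib3, Chac1, Psat1, Phgdh, Bcat1, Slc7a5 and Slc3a2. They were chosen as a pathway, but with earlier results of these data known, so the choice was not blind to their values. The paper itself reports Bcat1 as raised by IL-1β in the LSK cells. All 10 were found among the 55487 genes of the count tables. RNA was sequenced from sorted mouse bone marrow stem and progenitor cells and from cultured bone marrow mesenchymal stromal cells (MSC), each with vehicle (PBS) or the inflammatory cytokine IL-1β. LSK cells (lineage-negative, Sca-1-positive, c-Kit-positive) hold the stem cells and multipotent progenitors, and LK cells (lineage-negative, c-Kit-positive, named MP(LK) in the labels) hold mainly committed myeloid and erythroid progenitors.

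Both sorted populations carried the heterozygous Jak2V617F knock-in, a constitutively active kinase mutant of myeloproliferative disease, in the PBS and the IL-1β arms alike, so no wild-type LSK or LK library stands beside them. Marrow from Mx1Cre Jak2V617F donors, in which Cre is driven by an interferon-inducible promoter and switched on by pI-pC, had been transplanted into irradiated C57BL/6 recipients. Recipients then received PBS or 0.5 μg of IL-1β by intraperitoneal injection, 3 doses a week for 16 weeks. The MSC came from C57BL/6 marrow without the mutation, were cultured for 21 days and were exposed to PBS or to 5 ng/ml of IL-1β for 72 h. There were 3 LSK and 3 LK libraries with PBS, 2 LSK and 2 LK libraries with IL-1β, and 2 MSC libraries in each arm. The labels do not say whether the libraries of a group came from separate animals or cultures, so the p-values measure the spread between these libraries only.

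The integrated stress response is the background to these genes. Kinases that sense a lack of amino acids (GCN2, encoded by Eif2ak4), unfolded protein in the endoplasmic reticulum (PERK, Eif2ak3), double-stranded RNA (PKR, Eif2ak2) or a lack of heme (HRI, Eif2ak1) phosphorylate the initiation factor eIF2, which slows translation in general and favours translation of the Atf4 message. ATF4 protein then pairs with C/EBP family factors on composite elements and switches on amino acid synthesis and uptake. Because ATF4 is set largely at translation, the level of its mRNA is not a measure of its protein, and the mRNA levels of its targets are what these data can show.

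The genes lie, on GRCm38, at chr15:80255184-80257541 (Atf4, plus strand), chr10:127290774-127296288 (Ddit3, plus) and chr2:152337422-152344032 (Trib3, minus). Chac1 lies at chr2:119351229-119354381 (plus), Asns at chr6:7675169-7693254 (minus), Psat1 at chr19:15904678-15947337 (minus) and Phgdh at chr3:98313170-98339990 (minus). Bcat1 lies at chr6:144993835-145076184 (minus), Slc7a5 at chr8:121881150-121907694 (minus) and Slc3a2 at chr19:8706882-8723369 (minus). Ddit3 overlaps Mars on the opposite strand, and reads were counted by strand. On its own strand Ddit3 overlaps another identifier of the same symbol, and Bcat1 overlaps Gm23071. Counting by strand does not separate these same-strand overlaps.

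Sequences are given for the 3 genes whose promoters held the shared core of that composite element, since these letters are the known core through which ATF4 acts on Asns and related genes. Promoter windows ran from 250 bases before to 50 bases after each RefSeq start on GRCm38.p6, which is 300 bases, and both strands were searched for TGATGNAA (TTNCATCA in reverse). Of the 9 genes with a window, the core was found in Asns, Chac1 and Trib3 (33.3%), against 4.51% of 27025 genes with a window. The windows of Atf4, Ddit3, Psat1, Phgdh, Bcat1 and Slc3a2 did not hold these letters, and Slc7a5 had no window. Each line gives the surrounding bases 5′ to 3′ on the strand of the gene, with the core in capitals.
Asns, chr6:7693214-7693243, minus strand: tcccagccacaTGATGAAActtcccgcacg
Chac1, chr2:119351023-119351082, plus strand: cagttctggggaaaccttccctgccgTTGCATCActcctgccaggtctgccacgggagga
Trib3, chr2:152344028-152344057, minus strand: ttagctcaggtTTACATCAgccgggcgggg
In Asns the core read forward and began 23 bases before the RefSeq start. In Chac1 it read in reverse and began 193 bases before the start. In Trib3 it also read in reverse and began 14 bases after the start. The same letters were found in 5 of 12 cytosolic aminoacyl-tRNA synthetase genes with a window (Aars, Gars, Iars, Tars and Yars) and in 5 of 14 other stress effectors of ATF4 (Atf3, Fgf21, Jdp2, Nupr1 and Vldlr). They were found in 1 of 13 genes of the endoplasmic reticulum unfolded protein response (Herpud1). A match is a description of the letters and not a measured binding site.

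Library totals lay between 12172400 and 18544346 gene-assigned read pairs in the PBS libraries of LSK and LK, and between 4393233 and 8641124 in their IL-1β libraries, so the treated sorted libraries were the shallower ones. MSC libraries held 5834909 to 30871055. Levels are counts scaled to library size (CPM) with TMM factors over all 14 libraries, and levels of different genes are compared per kilobase of exon (RPKM on the same factors). A gene was called where edgeR's quasi-likelihood test gave a Benjamini-Hochberg adjusted p under 0.05 over all genes tested together with a log2 fold change beyond 0.5 in either direction. Of the LSK libraries, PBS replicate 2 stood apart (Phgdh at 996 CPM and Trib3 at 14.6 CPM, against at most 444 and 2.73 CPM in the other PBS libraries), and calls that it changes are given with and without it. The stem cell marker sum was highest in LSK (1231 to 1728 CPM with PBS) and the erythroid sum in LK (5105 to 6873 CPM). The MSC cultures carried mesenchymal markers at a summed 1822 to 3476 CPM with PBS, with Lepr at 0, and macrophage markers (Adgre1, Csf1r, Lyz2 and 7 others) at 15811 to 20335 CPM, so macrophage markers exceeded those of the labelled cell type. In bulk libraries such as these, fewer cells of a type and less RNA per cell cannot be told apart.

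**Figure D1:**
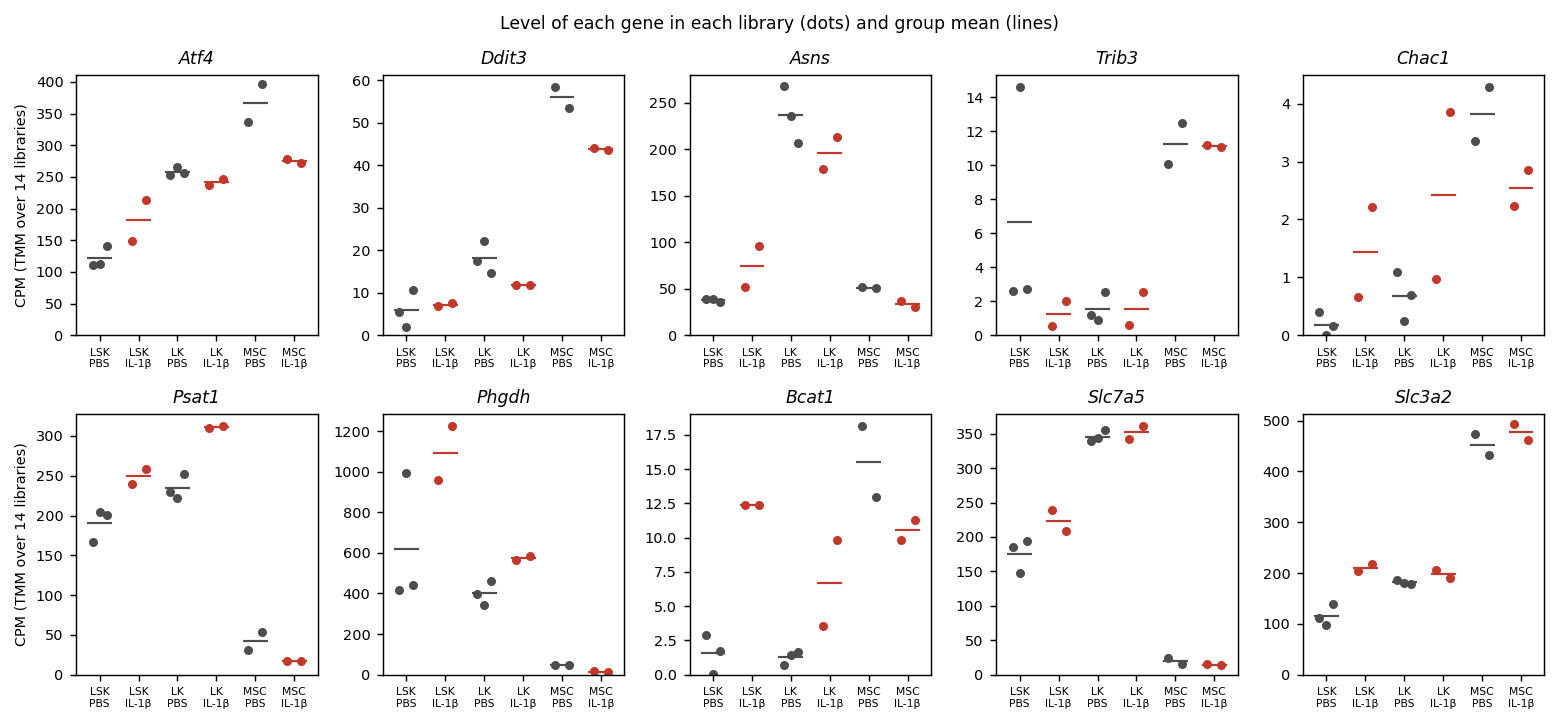
Level of each of the 10 genes in CPM (vertical axis, linear from 0) in each of the 14 libraries, grouped by population and treatment, with dots for libraries, lines for group means, grey for PBS and red for IL-1β. Asns lay at 35.2 to 39.0 CPM in LSK with PBS and at 207 to 268 CPM in LK with PBS, and Phgdh lay at 11.1 to 17.5 CPM in MSC with IL-1β.

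Per kilobase, the order of the 10 genes differed between the populations. In LSK with PBS, Phgdh was at 249 ± 131 RPKM (SD, n = 3), followed by Atf4 (51.4 ± 7.21), Slc7a5 (47.4 ± 6.64), Psat1 (44.8 ± 4.97) and Slc3a2 (32.8 ± 5.95). The spreads of Atf4, Slc7a5 and Psat1 meet, and that of Slc3a2 lies below them. Asns followed at 13.8 ± 0.756 RPKM, while Ddit3 (3.53 ± 2.51), Trib3 (3.13 ± 3.26), Bcat1 (0.169 ± 0.153) and Chac1 (0.112 ± 0.122) were low. In LK with PBS, Phgdh was again first at 161 ± 24 RPKM (SD, n = 3), followed by Atf4 (109.5 ± 2.72), Slc7a5 (93.3 ± 2.21) and Asns (86.6 ± 11.2), and the spreads of Slc7a5 and Asns meet. Psat1 (55.1 ± 3.70) and Slc3a2 (51.4 ± 1.15) came after them in LK, also with spreads that meet, and Ddit3 (10.6 ± 2.18), Trib3 (0.725 ± 0.417), Chac1 (0.414 ± 0.256) and Bcat1 (0.136 ± 0.054) were low. In MSC with PBS, Atf4 (156 ± 18.2 RPKM, SD, n = 2) and Slc3a2 (128 ± 8.05) were first, Ddit3 followed at 32.7 ± 2.05, and Phgdh (18.8 ± 0.406) and Asns (18.7 ± 0.181) lay side by side below it. Psat1 (9.84 ± 3.83), Slc7a5 (5.42 ± 1.74) and Trib3 (5.31 ± 0.816) came next in MSC, and the spreads of these 3 genes meet. Bcat1 and Chac1 were at or below 2.33 RPKM in every group mean, and a value of 1 or a few reads weighs heavily in them: Bcat1 rested on 44, 1 and 34 read pairs in the LSK libraries with PBS, and Chac1 on 6, 0 and 3. The 3 populations were set side by side here as a description, since the MSC differ from the sorted cells in genotype, culture and treatment at once.

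The comparison of LSK with LK under PBS gave the firmest differences. Asns, which makes asparagine from aspartate and glutamine, was at 39.0, 38.6 and 35.2 CPM in LSK and at 268, 235 and 207 CPM in LK. No library of one population reached the range of the other, and the log2 fold change of LSK against LK was -2.56 (SE 0.15, edgeR adjusted p = 9.38e-05). Atf4 itself was at 110.2, 113 and 141 CPM in LSK and at 253, 265 and 257 CPM in LK, a log2 fold change of -1.0 (SE 0.15, adjusted p = 0.00192). Slc7a5, the catalytic light chain of the LAT1 exchanger that imports leucine and other large neutral amino acids, was at 185, 148 and 195 CPM against 339, 344 and 355 CPM. Its log2 fold change was -0.88 (SE 0.16, adjusted p = 0.00405), again with no overlap between the populations. Slc3a2, the heavy chain that carries LAT1 to the membrane, was at 112, 97.2 and 139 CPM against 186, 179.7 and 178 CPM, a log2 fold change of -0.55 (SE 0.17, adjusted p = 0.0330). That call was lost when any library but LSK PBS replicate 3 was left out (log2 fold changes of -0.76 to -0.44 over the 6 fits), without LSK PBS replicate 2 by size of change only.

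These 4 of the 9 members tested were called lower in LSK by edgeR and none was called higher (DESeq2 called 6 and limma-voom 5 in either direction), where 12.8% of the 12737 genes tested were called lower, 18.4% higher and 31.2% in either direction. In 6 of 9 every LSK library lay below every LK library, where 24.2% of all genes did, and the median log2 fold change was -0.55 against 0.04 over all genes. Ddit3, which encodes the stress factor CHOP, was at 5.49, 2.05 and 10.6 CPM in LSK and at 17.4, 22.1 and 14.7 CPM in LK. Its libraries did not overlap, and the log2 fold change of -1.47 (SE 0.51) had an adjusted p of 0.0569 in edgeR. With the replicate number as a block, which pairs LSK and LK libraries, Ddit3 was called lower at -1.70 (adjusted p = 0.0255). It was also called by DESeq2 (adjusted p = 0.0134), by limma-voom (0.0279), without a filter (0.0193) and in the joint fit (0.0295). Calls were further made without LSK PBS replicate 2 (-1.06, adjusted p = 0.0270) and without LSK PBS replicate 3 (-2.21, adjusted p = 0.0149). In the other 9 of 16 settings Ddit3 was not called (adjusted p up to 0.161). Among those were the fits without LSK PBS replicate 1 and without any one LK PBS library. Trib3, a pseudokinase that damps ATF4 and CHOP signalling, went the other way: 2.58, 14.6 and 2.73 CPM in LSK against 1.17, 0.904 and 2.55 CPM in LK, a log2 fold change of 2.17 (SE 0.79, adjusted p = 0.0644). DESeq2 (2.16, adjusted p = 0.0174) and edgeR without a filter (2.14, adjusted p = 0.00931) called Trib3 higher. Without LSK PBS replicate 2 its log2 fold change was 0.88.

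Neither serine synthesis enzyme was called between LSK and LK. Phgdh, which takes the first step from 3-phosphoglycerate, was at 417, 996 and 444 CPM in LSK and at 396, 344 and 463 CPM in LK, with overlapping libraries (log2 fold change 0.71, SE 0.32, adjusted p = 0.128, and 0.20 without LSK PBS replicate 2). Psat1, the aminotransferase of the following step, was at 166, 204 and 201 CPM against 229, 222 and 252 CPM, lower in every LSK library (log2 fold change -0.21, 95% interval -0.50 to 0.077). Bcat1, the cytosolic branched-chain aminotransferase, was at 2.91, 0.0707 and 1.75 CPM against 0.701, 1.46 and 1.66 CPM, and its interval of -1.52 to 2.33 left the direction unresolved. Chac1, which degrades glutathione, had too few reads in LSK and LK under PBS to be tested. Beside these values, 9 of 10 stem cell markers were called higher in LSK, where 18.4% of all genes were. All 10 erythroid markers were called lower, where 12.8% of all genes were. Erythroid sums were 861 to 962 CPM in LSK and 5105 to 6873 CPM in LK. The part of these markers in the differences was not tested.

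**Figure D2:**
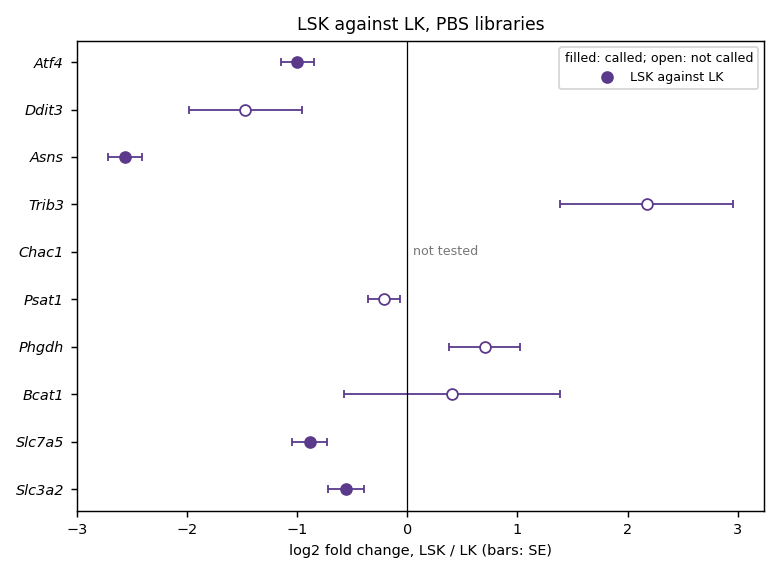
Log2 fold change of LSK against LK in the PBS libraries (horizontal axis, bars are standard errors, n = 3 libraries a group) for each gene (vertical axis), filled where called and open where not. Asns at -2.56, Atf4 at -1.0, Slc7a5 at -0.88 and Slc3a2 at -0.55 are filled, and Chac1 was not tested.

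IL-1β given to the mice left none of the 10 genes past the test in LSK, although most lay higher in the treated libraries. Of the 10, 9 had enough reads (Chac1 did not), and 0 of 9 were called by edgeR, in a comparison where 0.632% of 13132 genes were called (0.32% higher and 0.312% lower). By unadjusted p, 4 of 9 were under 0.05, where 18.5% of all genes were, and DESeq2 called 3 of the genes while limma-voom called 0. Their log2 fold changes were above 0 in 8 of 9, against 46.5% of all genes tested, and the median was 0.58 against -0.06 over all genes. In 6 of 9 every IL-1β library lay above every PBS library, where 18.2% of all genes did.

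Among the amino acid synthesis genes, Asns was at 51.9 and 95.9 CPM in LSK with IL-1β, above the 35.2 to 39.0 CPM of the PBS libraries. The log2 fold change was 0.97 (SE 0.30, adjusted p = 0.147 in edgeR and 0.0487 in DESeq2). Both IL-1β libraries were higher, but they differed from each other by more than all PBS libraries did. Over the fits that left out 1 library, the log2 fold change of Asns ran from 0.48 to 1.35. Psat1 was at 240.2 and 259 CPM with IL-1β, against 166 to 204 CPM with PBS (log2 fold change 0.39, 95% interval -0.07 to 0.84). Phgdh was at 958 and 1226 CPM, against 417, 996 and 444 CPM, so that PBS replicate 2 alone reached into the IL-1β range. The log2 fold change of Phgdh was 0.82 (SE 0.39, adjusted p = 0.288). Without that library it was 1.36 (adjusted p = 0.0383) and called, the only 1 of 15 other settings with a call. The library was singled out by its own Phgdh level, so that call is no independent support. Over the fits that left out 1 library, the log2 fold change of Phgdh was 0.61 to 1.36. Bcat1 was at 12.4 CPM in both IL-1β libraries, from 113 and 56 read pairs, against 2.91, 0.0707 and 1.75 CPM with PBS. Its log2 fold change was 2.96 (SE 0.93, adjusted p = 0.155 in edgeR and 0.0199 in DESeq2). Without PBS replicate 2, which held 1 read pair of Bcat1, it was 2.43 (adjusted p = 0.0383) and called. These were among the 4 of 15 other settings that called Bcat1.

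Of the transporter chains, Slc3a2 was at 204 and 217 CPM with IL-1β against 97.2 to 139 CPM with PBS in LSK, a log2 fold change of 0.86 (SE 0.25, adjusted p = 0.131 in edgeR and 0.0232 in DESeq2). Slc7a5 was at 239 and 209 CPM against 148 to 195 CPM, with a log2 fold change of 0.34 (95% interval -0.13 to 0.81). Both chains lay higher in every treated library, the heavy chain by more. The ratio of Slc3a2 to Slc7a5 in RPKM was accordingly 0.634, 0.690 and 0.748 with PBS and in the treated pair 0.895 and 1.1.

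Of the regulators in LSK, Atf4 was at 149 and 214 CPM with IL-1β against 110.2 to 141 CPM with PBS, a log2 fold change of 0.58 (SE 0.26, adjusted p = 0.273). Ddit3 was at 6.90 and 7.53 CPM, inside its PBS range of 2.05 to 10.6 CPM (log2 fold change 0.24, and -0.15 without PBS replicate 2). Trib3 was at 0.547 and 1.99 CPM, from 5 and 9 read pairs, below its PBS libraries at 2.58, 14.6 and 2.73 CPM. The log2 fold change of Trib3 was -2.46 (SE 1.04, adjusted p = 0.253), opposite in sign to Asns, and -1.14 without PBS replicate 2, the library at 14.6 CPM. Chac1 was at 0.657 and 2.22 CPM with IL-1β, from 6 and 10 read pairs, against 6, 0 and 3 read pairs with PBS. Neutrophil granule markers moved with these values: all 9 tested were higher in both IL-1β libraries. Of these, 4 were called, where 0.32% of all genes were called higher. Their sum went from 1991 to 2802 CPM with PBS to 9033 to 10508 CPM with IL-1β. Stem cell markers mostly fell, with log2 fold changes below 0 in 8 of 10. Of these markers, 2 were called lower and 0 higher, where 0.312% of all genes were called lower. The stem cell marker sum was 1231 to 1728 CPM with PBS, then 888 to 965 CPM. The lymphoid marker sum was 90.5 to 323 CPM with PBS, then 3.18 to 7.09 CPM, with 1 of 2 tested called (Dntt). The part of these cells in the result was not tested.

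In LK, 2 of the 10 members were called higher with IL-1β and 0 lower, in a comparison where 6.77% of 12835 genes were called higher, 2.57% lower and 9.34% in either direction. Phgdh was at 396, 344 and 463 CPM with PBS and at 565 and 583 CPM with IL-1β. Every treated library was above every control library, and the log2 fold change was 0.59 (SE 0.13, adjusted p = 0.0278). Psat1, the following enzyme of the same route, was at 229, 222 and 252 CPM with PBS and at 309.8 and 313 CPM with IL-1β. Its adjusted p of 0.0187 passed, but its log2 fold change of 0.48 (SE 0.10) was inside the 0.5 limit, so it was not called. Bcat1 was at 0.701, 1.46 and 1.66 CPM with PBS, from 9, 29 and 24 read pairs, and at 3.54 and 9.81 CPM with IL-1β, from 29 and 66. Its log2 fold change was 2.43 (SE 0.55, adjusted p = 0.0283). Both calls held only without LK PBS replicate 3 and were lost without any of the other 4 libraries, with adjusted p up to 0.228 for Phgdh and 0.315 for Bcat1. They were also lost where all 10 sorted libraries were fitted jointly (adjusted p = 0.486 and 0.190).

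None of the remaining genes was called in LK. Atf4 was at 253, 265 and 257 CPM with PBS and at 237 and 246 CPM with IL-1β, and the interval of its log2 fold change (-0.19 to 0.15) was narrow. Asns was at 179 and 213 CPM with IL-1β against 207 to 268 CPM with PBS, with overlapping libraries and a log2 fold change of -0.20 (95% interval -0.45 to 0.05). Ddit3 was at 11.8 and 11.7 CPM against 14.7 to 22.1 CPM with PBS, lower in both treated libraries (log2 fold change -0.54, SE 0.22, adjusted p = 0.171). Slc7a5 was at 343 and 362 CPM against 339 to 355 CPM with PBS (log2 fold change 0.10, 95% interval -0.078 to 0.28). Slc3a2 was at 206 and 191 CPM against 178 to 186 CPM with PBS (log2 fold change 0.21, SE 0.09, adjusted p = 0.199). Trib3 was at 0.610 and 2.53 CPM and Chac1 at 0.976 and 3.86 CPM with IL-1β, and both overlapped their PBS libraries. The 3 core-bearing genes shown above, Asns, Chac1 and Trib3, thus included no called gene in LK. Over the 10 genes, the median log2 fold change was 0.15 against -0.03 over all genes, and 5 had every IL-1β library above every PBS library on the scaling of this comparison, where 23.5% of all genes did. Slc7a5 is among these 5, although its CPM values above, scaled over all 14 libraries, overlap. Neutrophil granule markers rose in the same libraries, with 7 of 10 called higher, where 6.77% of all genes were. Their sum was 4330 to 9229 CPM with PBS and 16909 to 19674 CPM with IL-1β. Erythroid markers fell, with 6 of 10 called lower, where 2.57% of all genes were. Their sum was 5105 to 6873 CPM with PBS and 3065 to 3523 CPM with IL-1β. The part of both marker sets in the result was not tested.

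In the MSC cultures, 3 of the 10 genes were called lower with IL-1β and 0 higher, where 4.31% of 13239 genes were called lower, 7.14% higher and 11.4% in either direction. Phgdh was at 46.1 and 47.6 CPM with PBS and at 17.5 and 11.1 CPM with IL-1β, and the log2 fold change was -1.73 (SE 0.21, adjusted p = 0.00865). Psat1 was at 30.4 and 53.4 CPM with PBS and at 16.9 and 16.5 CPM with IL-1β, and the log2 fold change was -1.38 (SE 0.26, adjusted p = 0.0300). Asns was at 51.5 and 50.8 CPM with PBS and at 37.0 and 30.8 CPM with IL-1β, and the log2 fold change was -0.62 (SE 0.12, adjusted p = 0.0312). The arms of all 3 genes stood clear of each other. Each of the 3 calls was lost when either IL-1β library was left out (0 members called in both fits), with the lone library then assumed to vary like the others.

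The direction was shared by most of the remaining genes in MSC, none of which passed. Atf4 was at 337 and 397 CPM with PBS and at 278 and 272 CPM with IL-1β (log2 fold change -0.45, SE 0.12, adjusted p = 0.0576). Ddit3 was at 58.5 and 53.6 CPM against 44.2 and 43.6 CPM with IL-1β (log2 fold change -0.39, SE 0.11, adjusted p = 0.0833). Bcat1 went from 18.1 and 13 CPM to 9.84 and 11.3 CPM, and Slc7a5 from 24.6 and 15.5 CPM to 14.7 and 13.7 CPM, with adjusted p of 0.174 and 0.241. Chac1 was at 3.35 and 4.29 CPM with PBS and at 2.23 and 2.85 CPM with IL-1β, lower in both treated libraries (log2 fold change -0.66, SE 0.37, adjusted p = 0.290). In 8 of 10 genes both IL-1β libraries lay below both PBS libraries, where 29.8% of all genes did, and the median log2 fold change was -0.55 against 0.00 over all genes. Trib3 (10.1 and 12.5 CPM, then 11.2 and 11.1 CPM) and Slc3a2 (473 and 433 CPM, then 494 and 462 CPM) overlapped between the arms. Slc3a2 so stayed far above its light chain: the RPKM ratio of Slc3a2 to Slc7a5 was 20.2 to 35.3 in the MSC libraries and 0.528 to 1.1 in the sorted cells. The macrophage marker sum was 15811 to 20335 CPM with PBS, then 41589 to 42579 CPM (7 of 10 called higher, where 7.14% of all genes were). The mesenchymal sum was 1822 to 3476 CPM, then 4993 to 5339 CPM (1 of 10 tested called, Dcn). The part of both marker sets in the result was not tested.

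**Figure D3:**
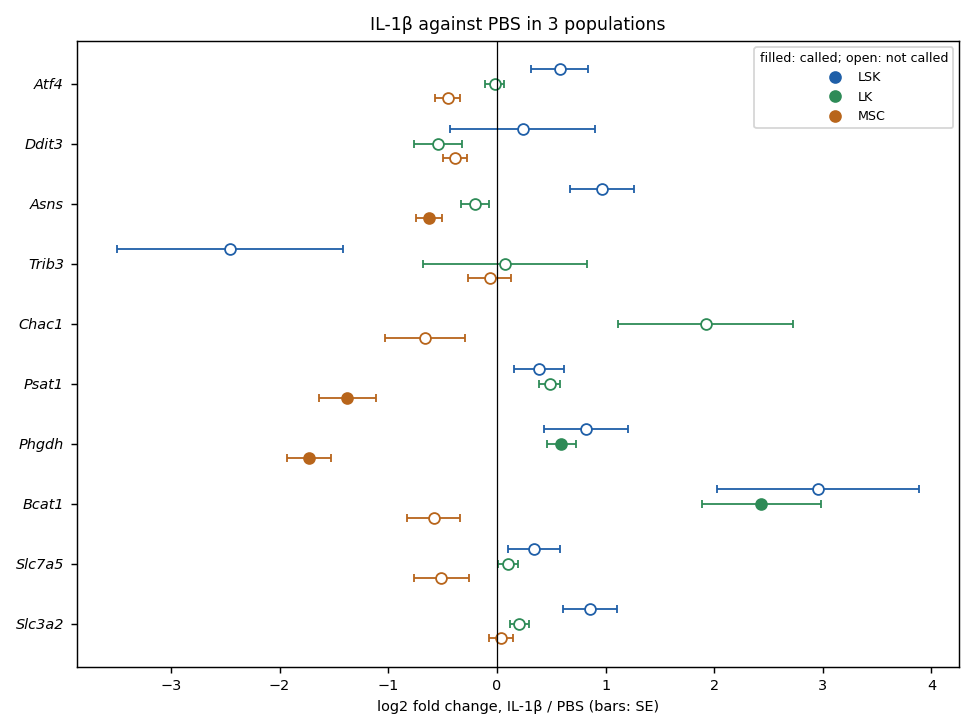
Log2 fold change of IL-1β against PBS (horizontal axis, bars are standard errors) for each gene (vertical axis) in LSK (blue, 2 against 3 libraries), LK (green, 2 against 3) and MSC (orange, 2 against 2), filled where called and open where not. Phgdh lies at 0.82 in LSK, 0.59 in LK and -1.73 in MSC, and Chac1 was not tested in LSK.

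The difference between the LSK and LK responses was tested directly over the 10 sorted libraries. None of the 10 genes was called, where 0.0289% of 13839 genes were (0.00723% higher and 0.0217% lower, or 4 genes in all and 24 with the replicate block). By unadjusted p 2 of 10 were under 0.05, where 14.2% of all genes were. Asns had the smallest p: its IL-1β response was 1.13 log2 units higher in LSK than in LK (SE 0.34, 95% interval 0.47 to 1.79, unadjusted p = 0.00558, adjusted p = 0.204 in edgeR). DESeq2 put the same difference at 1.19 (adjusted p = 0.0416), and limma-voom called 0 of the 10. Over the fits that left out 1 library, the Asns difference ran from 0.61 to 1.56. Slc3a2 differed by 0.61 (95% interval 0.12 to 1.11, adjusted p = 0.311) and Atf4 by 0.56 (0.03 to 1.09, adjusted p = 0.365). For Phgdh the interval was -0.68 to 1.08 and for Psat1 -0.57 to 0.31, so a like or an unlike response of these 2 genes was not resolved. The intervals of the other 5 also spanned 0: -0.69 to 2.15 for Ddit3, -5.25 to 0.12 for Trib3, -2.24 to 4.02 for Chac1, -1.94 to 2.87 for Bcat1 and -0.27 to 0.68 for Slc7a5. The LSK and LK levels of Asns lay closer after IL-1β, at 73.9 ± 31.1 and 196 ± 24.3 CPM (SD, n = 2 each), than with PBS, at 37.6 ± 2.07 and 237 ± 30.7 CPM (SD, n = 3 each).

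The sorted cells and the MSC cultures were also compared in their response to IL-1β, by fits added after the data were seen. Against MSC, the LK response was called higher in 3 of the 10 genes (Psat1, Phgdh and Bcat1) and lower in 0, where 3.75% of 14810 genes were called higher, 3.62% lower and 7.37% in either direction. The LSK response was called higher than that of MSC in 2 of the 10 (Psat1 and Phgdh) and lower in 0, where 0.825% of 14901 genes were called higher, 1.99% lower and 2.81% in either direction. These comparisons share the MSC libraries, and cell type, Jak2 genotype, route and length of exposure differ between the sorted cells and the cultures and cannot be told apart.

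Within populations, the 10 genes were compared pair by pair. After the mean of its population was taken from each log2 CPM value, 36 of 45 pairs of the 10 genes had a positive Pearson correlation over the 14 libraries, with a median of 0.44. These correlations describe libraries that share treatment, depth and population structure, and they carry no test. The same share and median were not computed over pairs of other genes, so they cannot be read as particular to these 10. Atf4 and Asns were the closest pair (r = 0.868), followed by the consecutive serine enzymes Psat1 and Phgdh (r = 0.843) and by Chac1 and Bcat1 (r = 0.827), both of which rest on few reads. Trib3 ran against Slc3a2 (r = -0.732), Bcat1 (r = -0.643) and Ddit3 (r = -0.638), and LSK PBS replicate 2 had the highest Trib3 and the lowest Ddit3, Bcat1 and Slc3a2 of the LSK libraries. Ranked over 9853 genes by the same measure, those most like Asns were Atp5g1 (r = 0.957), Exosc8 (0.955), Smarcb1 (0.936), Mtch2 (0.936) and Suds3 (0.933). Each of these was closer to Asns than Atf4 was (r = 0.868).

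**Figure D4:**
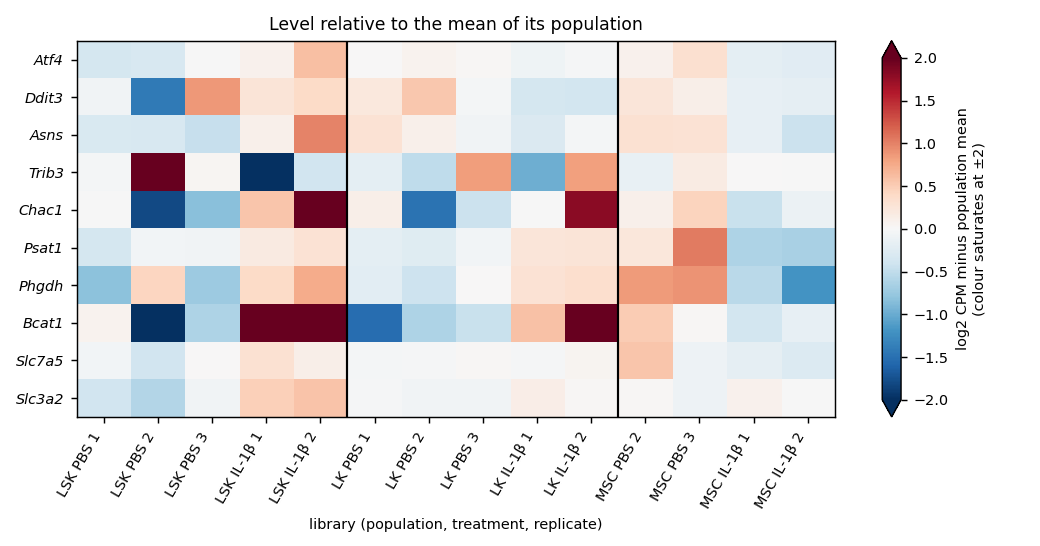
Log2 CPM of each gene (rows) in each of the 14 libraries (columns) after subtraction of the mean of its population, red above and blue below that mean, with the colour saturated at 2 units. Asns and Atf4 (r = 0.868 over the libraries) are highest in LSK IL-1β replicate 2, and Trib3 is highest in LSK PBS replicate 2.

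The rest of the pathway was described by lists of related genes. Of the 16 sensors and eIF2 regulators, 0 were called in either direction with IL-1β in LSK and 0 in LK. In MSC 1 was called, Eif2ak2 (PKR, an interferon-inducible gene), which rose by 1.28 on the log2 scale (SE 0.20, adjusted p = 0.0171). Over all genes, 0.632% were called in LSK, 9.34% in LK and 11.4% in MSC. The amino acid sensor Eif2ak4 had log2 fold changes of -0.39 in LSK, 0.22 in LK and 0.07 in MSC, and the endoplasmic reticulum sensor Eif2ak3 of -0.28, 0.32 and 0.45, none of them called. Eif2ak1 had log2 fold changes of 0.07, -0.07 and 0.31, also without a call. Between LSK and LK under PBS, 8 of 16 were called lower in LSK and 0 higher, where 12.8% of all genes were called lower and 18.4% higher. Among the 8 were Eif2s2 (-1.41), Eif2b3 (-1.35), Eif2b1 (-1.30) and Eif2s1 (-0.99), which encode subunits of eIF2 and of its exchange factor eIF2B. Eif2ak1 was also lower in LSK (-0.78, SE 0.17, adjusted p = 0.00922).

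The cytosolic aminoacyl-tRNA synthetases, which charge tRNA and include further ATF4 targets, went the way of Asns between LSK and LK. All 20 had log2 fold changes below 0 in LSK against LK under PBS, and the median was -0.58 against 0.04 over all genes. Of the 20, 10 were called lower and 0 higher, where 12.8% of all genes were called lower and 18.4% higher. Examples were Hars (-1.09), Cars (-1.08), Farsb (-0.86) and Aars (-0.82). With IL-1β 0 of 20 were called in LSK, LK or MSC, where 0.632%, 9.34% and 11.4% of all genes were. Their medians were 0.50, -0.04 and -0.15. In LSK 12 of 20 had every IL-1β library above every PBS library, where 18.2% of all genes did.

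Of the 11 serine, glycine, proline and one-carbon enzymes tested between LSK and LK under PBS, 4 were called lower in LSK and 1 higher, where 12.8% of all genes were called lower and 18.4% higher. Mthfd1 (-1.85), Mthfd2 (-1.56), Aldh18a1 (-1.02) and Shmt2 (-0.67) were lower and the cytosolic Shmt1 (0.93) was higher. In LSK 0 of 12 tested were called with IL-1β. In LK only Mthfd1 was called, lower by -0.57 (SE 0.12, adjusted p = 0.0237), opposite to Phgdh. In MSC only the mitochondrial Mthfd2 was called, at -0.68 (SE 0.12, adjusted p = 0.0250), the same direction as Phgdh and Psat1, and 11 of 12 tested were below 0. Over all genes, 0.632% were called in LSK, and 2.57% in LK and 4.31% in MSC were called lower.

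Among 11 other amino acid transporters, 4 were called higher with IL-1β in LK and 0 lower, where 6.77% of all genes were called higher. These were the cationic amino acid transporter Slc7a3 (2.92, SE 0.75), the cystine importer Slc7a11 (2.53, SE 0.55), Slc7a8 (1.98, SE 0.26), which is the light chain LAT2, and Slc7a6 (0.87, SE 0.18). Like Slc7a5, these light chains Slc7a11, Slc7a8 and Slc7a6 pair with the Slc3a2 heavy chain. Slc7a3 and Slc7a11 were at or below 5.20 CPM in every LK library, so those folds rest on few reads. In MSC 2 of 9 tested were called higher, Slc38a2 (0.74) and Slc7a8 (0.55), where 7.14% of all genes were. In LSK 0 of 11 were called, where 0.632% of all genes were. Between LSK and LK under PBS, Slc7a6 (0.98) and Slc38a1 (0.56) were higher in LSK, and Slc1a4 (-1.99) and Slc43a1 (-1.58) were lower. These were 2 higher and 2 lower of 9 tested, where 18.4% of all genes were called higher and 12.8% lower. The 2 called higher lay near that share.

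The other stress effectors of ATF4 split. In LK, Jdp2 (1.79), Cebpb (1.51) and Atf5 (1.39), all leucine zipper factors, were called higher with IL-1β and the sestrin Sesn2 (-0.81) lower, of 12 tested. Over all genes in LK, 6.77% were called higher and 2.57% lower. In MSC, Cebpb (1.03), Atf5 (0.80) and the mTORC1 inhibitor Ddit4 (0.73) were called higher and Atf3 (-1.32) lower, of 12 tested. Over all genes in MSC, 7.14% were called higher and 4.31% lower. In LSK 0 of 9 tested were called with IL-1β. Under PBS, Vldlr (4.86), Ddit4 (1.69) and Jdp2 (1.51) were higher in LSK than in LK. They were 3 of 10 tested, with 0 called lower, where 18.4% of all genes were called higher and 12.8% lower. Of the 6 further branched-chain enzymes, 0 were called with IL-1β in any population. Under PBS Bcat2, the mitochondrial partner of Bcat1, was lower (-0.70) and the phosphatase Ppm1k higher (1.38) in LSK. Each was 1 of 6 tested, against the same shares of all genes.

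The list for the neighbouring arm of the stress response, the endoplasmic reticulum unfolded protein response, behaved unlike the 10 genes in LK. It held chaperones and foldases, the sensors Ern1 and Atf6 and the transcription factor Xbp1, among others. Of its 16 genes, 13 were called higher with IL-1β in LK and 0 lower, where 6.77% of all genes were called higher. All 16 had every treated library above every control library (where 23.5% of all genes did), and the median log2 fold change was 1.17. The largest were Sdf2l1 (1.61), Xbp1 (1.51), Pdia4 (1.35) and Calr (1.33). Xbp1 was at 104, 88.4 and 82.6 CPM with PBS and at 268 and 228 CPM with IL-1β in LK. In LSK 1 of 16 was called higher, Sdf2l1 (2.01, SE 0.29, adjusted p = 0.0207), where 0.32% of all genes were. There 12 of 16 had every IL-1β library above every PBS library, where 18.2% of all genes did. In MSC 1 of 16 was called higher, Ern1 (0.52), where 7.14% of all genes were, and the median was 0.011. Between LSK and LK under PBS 1 of 16 was called, Manf, which was lower in LSK (-0.58), where 12.8% of all genes were called lower. For the difference of the LSK and LK responses no gene of these 7 lists was called, where 0.0289% of all genes were. In LK these changes stood beside a log2 fold change of -0.54 for Ddit3 and -0.02 for Atf4, and beside the rise in neutrophil granule markers given above, whose part was not tested.

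**Figure D5:**
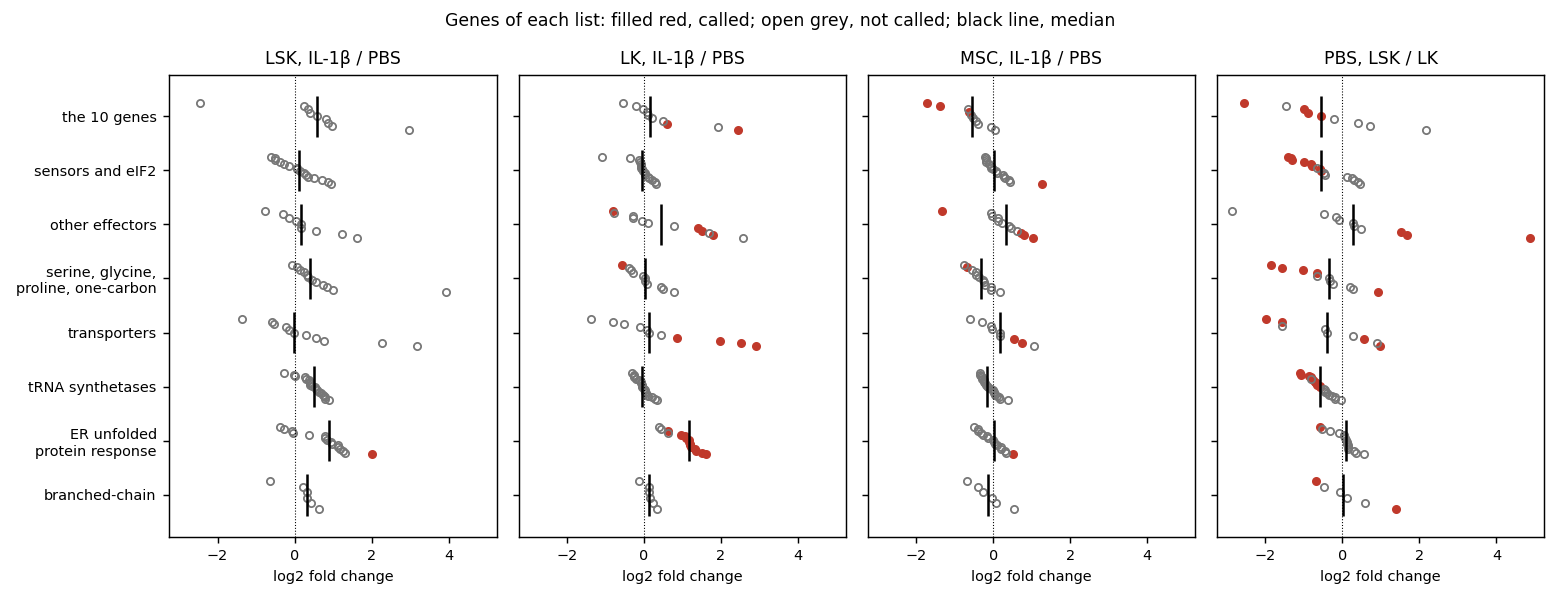
Log2 fold change (horizontal axis, the same scale in the 4 panels) of every tested gene in the 10-gene set and in 7 related lists (vertical axis), for IL-1β against PBS in LSK, LK and MSC and for LSK against LK under PBS, with called genes in red, genes not called open and the list median as a black line. The unfolded protein response genes have their median at 1.17 in LK and 0.011 in MSC, and the tRNA synthetases at -0.58 between LSK and LK.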

How the data were processed

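Gene counts from 14 ribosomal-RNA-depleted libraries were used as deposited. Per the file headers and the labels, the authors trimmed reads with fastp 0.20.0, aligned them to GRCm38 with HISAT2 2.0.1 and SAMtools 1.10, and counted read pairs per gene by strand with featureCounts 2.0.2 on Ensembl release 100. The gene length column of the deposited tables served for RPKM. The submitters' processing notes also name DESeq2. One further MSC library named in a file header was not analysed here.

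From these counts, genes were filtered (filterByExpr), scaled by TMM and tested with edgeR 4.0.16 (quasi-likelihood, robust) in R 4.3.3, within each population for IL-1β against PBS, for LSK against LK under PBS and for the difference of responses, with Benjamini-Hochberg adjustment over all genes tested. SE is the log2 fold change over the root of its F statistic, and intervals are 1.96 SE. Non-overlap was read on the scaling of each comparison. Where 2 identifiers shared the symbol Ddit3, the longer gene model was used. Alternatives were DESeq2 1.42.0, limma-voom 3.58.1, other scalings, filters, thinned counts, a replicate block, a joint fit and leaving out libraries.

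The 10 genes, the related lists and the tests were chosen with earlier results of these data known. The genes named are the 10 in every comparison, the kinases Eif2ak1 to Eif2ak4, those called in each list (at most 4 by size of change) and the 5 most like Asns. Comparisons of the sorted cells with MSC responses were added after the data were seen. On simulated counts, 65.8% of genes changed by 2 log2 units were recovered for the LSK treatment comparison, 83.8% for LK and 83.3% for MSC. Recovery was 83.3% for LSK against LK. For the differences of responses it was 50.8% (LSK and LK), 67.4% (LK and MSC) and 36.1% (LSK and MSC). Only changes of 2 log2 units were simulated, which is larger than most changes of the 10 genes. Recovery of smaller changes was not measured. Beside the 193 to 198 changed genes tested, unchanged genes were also called. These false calls numbered 4 for LSK, 22 for LK, 28 for MSC and 12 for LSK against LK. They numbered 6 (LSK and LK), 13 (LK and MSC) and 4 (LSK and MSC) for the differences.

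Libraries of LSK and LK that carry the same number had correlated deviations from their group means over 10930 genes. The values of r were 0.150, 0.123 and 0.473 with PBS and 0.149 with IL-1β, each over 0.1. The main fits of LSK against LK and of the difference between their responses did not use a pairing by replicate number. A fit with the replicate number as a block was run as an alternative. Differently numbered PBS pairs had r from -0.388 to 0.199, and LSK replicate 2 correlated more with LK replicate 1 (0.199) than with its own number, so the pairing is uncertain. With 2 libraries an arm the deviations mirror each other, so the IL-1β value is a single one. Symbols were matched through a gene table for 55141 of 55487 identifiers, and promoter sequences are from RefSeq on GRCm38.p6.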

Additional observations from a re-analysis of the deposited data

Results flagged for a closer look

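The IL-1β response of several of these genes went in opposite directions in sorted cells and in MSC cultures, and the differences were tested by interaction fits in edgeR that were added after the data were seen. Against LK, the response was higher than in MSC by 1.84 log2 units for Psat1 (SE 0.27, adjusted p = 0.00357), by 2.28 for Phgdh (SE 0.27, adjusted p = 0.00127) and by 2.99 for Bcat1 (SE 0.64, adjusted p = 0.0211), where 7.37% of 14810 genes were called. The Bcat1 call was lost without LK IL-1β replicate 2 (2.09, adjusted p = 0.105), without MSC IL-1β replicate 1 (2.89, adjusted p = 0.124) and without MSC IL-1β replicate 2 (3.07, adjusted p = 0.0980), whereas Psat1 and Phgdh were called in all 9 fits that left out a library. Slc7a5 also moved oppositely by library on each comparison's own scaling, with a difference of 0.57 (SE 0.24, adjusted p = 0.187) that was not called, though it was called without MSC PBS replicate 3 (0.89, adjusted p = 0.0195).

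Against LSK, the response was higher than in MSC by 1.75 log2 units for Psat1 (SE 0.35, adjusted p = 0.0320) and by 2.54 for Phgdh (SE 0.56, adjusted p = 0.0434), where 2.81% of 14901 genes were called. Over the 9 fits that left out a library, the call of Psat1 was lost in 5 (difference 1.24 to 2.06, adjusted p up to 0.189) and that of Phgdh in 8 (2.23 to 3.07, adjusted p up to 0.182). Atf4 (difference 1.02, SE 0.31, adjusted p = 0.103), Asns (1.58, SE 0.38, adjusted p = 0.0572), Bcat1 (3.53, SE 1.13, adjusted p = 0.117) and Slc7a5 (0.85, SE 0.34, adjusted p = 0.190) also moved oppositely by library, and none of these 4 was called. Asns was called in 7 of 17 other settings: with DESeq2 (1.66, adjusted p = 0.00346), with DESeq2 size factors, with upper-quartile factors, without a filter, in thinned libraries, without LSK PBS replicate 2 (1.60, adjusted p = 0.0295) and without LSK IL-1β replicate 1 (1.94, adjusted p = 0.0167). Bcat1 was called with DESeq2 (3.61, adjusted p = 0.0233), without a filter and without LSK PBS replicate 2 (3.00, adjusted p = 0.00742). DESeq2 also called Atf4 (1.09, adjusted p = 0.0139) and Slc3a2 (0.88, adjusted p = 0.0288). The sorted cells and the cultures differ in cell type, Jak2 genotype, in vivo or in vitro exposure, dose and duration at once, so these cannot be told apart.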

How the results depend on the processing

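Over the other settings tried, 667 of 736 log2 fold changes of the 10 genes kept their direction and their side of the threshold. Another 24 lost a call, 30 gained one and 15 changed sign. Only a gene called in the main fit could lose a call, so the 24 are not a share of 736. They fell on Bcat1 (7 of 15 settings) and Phgdh (5 of 15) in LK and on Slc3a2 (6 of 16) between LSK and LK. In MSC they fell on Phgdh, Psat1 and Asns (2 of 12 each). Genes called for IL-1β in LSK numbered 83, but 905 with DESeq2 (3 of the 10 genes), 21 with limma-voom, 869 without a filter (2 of the 10), 129 in thinned libraries, 592 with the replicate block (1 of the 10, Bcat1) and 1228 in the joint fit (2 of the 10). In LK they numbered 1199, with 1844 unfiltered, 2265 with the block (3 of the 10) and 489 in the joint fit. Of the 10 genes, limma-voom and thinning kept 1 call in LK and the joint fit 0. In MSC 1515 genes became 2354 without a filter. For the difference between LSK and LK, 4 genes became 332 with DESeq2 and 398 unfiltered (1 of the 10 each, Asns), 1 with limma-voom and 24 with the block. Leaving out 1 library gave 3 to 480 genes in LSK (0 to 2 of the 10), 66 to 2409 in LK (0 to 4), 38 to 3819 in MSC (0 to 5), 2145 to 4965 for LSK against LK (3 to 5), and 0 to 336 for the difference (0 to 1). The cause of these shifts was not tested. Signs changed for low or flat values: Trib3 in LK (-0.046 with limma-voom, -1.24 to 0.77 leaving out libraries), Trib3 in MSC (0.14 thinned, -0.18 to 0.091), Slc3a2 in MSC (-0.027 with upper-quartile factors, -0.037 to 0.13), Ddit3 in LSK (-0.15 to 0.94), Bcat1 between LSK and LK (-0.44 with limma-voom, -0.11 with the block, -0.39 to 0.96), and, for the difference between LSK and LK, Chac1 (-0.19 to 2.24) and Bcat1 (-0.074 to 1.4). Trib3 changed sign in the added difference between LK and MSC (-0.17 thinned, -1.20 to 0.82). For IL-1β against PBS within LSK or LK, same-numbered libraries did not deviate together (r = 0.189 and -0.0181 in LSK, -0.151 and 0.122 in LK), so the block there shares a number only. In LSK against LK the block changed no other call than that of Ddit3. No paired analysis was possible for MSC because its arms share only the number 2. Upper-quartile factors turned the split of MSC calls from 945 higher and 570 lower to 817 and 831. Depth limits Chac1, Trib3 and Bcat1, which rest on few reads in the sorted cells.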
